A study of Mus musculus with 2 samples.

Results

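The 45 genes described here run the cell division cycle and copy the genome, except Hmga2, which encodes a chromatin protein. They were taken by symbol from the probe sets of a mouse array, and 42 of them had a named probe set among 15644 named genes in all. The study measured primary hepatocytes, the parenchymal cells of the liver after isolation and plating, from a male C57BL/6 mouse aged 9 weeks. After 24 h in culture the cells received 10 µmol/l pregnenolone 16α-carbonitrile (PCN), a steroid that activates the pregnane X receptor in rodents, or dimethyl sulfoxide (DMSO), its solvent, and were harvested 12 h later. Each group was 1 pool of RNA from 3 samples on 1 array. With 2 arrays and no replicates, the spread between cultures is unknown for every difference below. The labels do not say whether the pooled samples came from separate animals, and both groups share the same strain, sex, age and time in culture.

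Hepatocytes of the adult liver rest outside the cycle and can enter it after tissue loss or plating. Entry runs through D cyclins with CDK4 and CDK6 and cyclin E with CDK2, which phosphorylate the RB proteins and free E2F factors to switch on replication genes. The MCM helicase is then loaded at origins and copied DNA is separated in mitosis under cyclin B with CDK1 and a spindle checkpoint.

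The deposited values are intensities from GCRMA, which corrects each probe for background, normalizes the arrays to each other and gives 1 value per probe set. A floor of 32 (5 on the log2 scale) was set, and a gene that reached it in at least 1 array counted as measured. By this rule 34 of the 45 members were measured, 32 of them in both arrays. Neither array reached the floor for 8 others, and 3 (Pcna, Ccnb1 and Mki67) had no named probe set and were not analysed here. Probe sets differ in how well they bind, so the intensities of different genes are not ranked against each other, and groups are compared by how many members passed the floor and by their differences, PCN minus DMSO.

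The cultures read as hepatocytes in both arrays. Of 12 hepatocyte markers 9 were measured (Tat did not reach the floor, and Cps1 and Ass1 were not analysed here), and Alb, the albumin gene, had an intensity of 21685 with DMSO and 21383 with PCN. Of 38 markers of Kupffer cells and leukocytes, endothelium, stellate cells and bile ducts, 8 were measured. The summed intensity of the 36 with a named probe set, measured or not, was 2709 with DMSO and 2650 with PCN, most of it from Cd68. The bile duct markers Krt19 and Sox9 differed by 0.40 and -0.42 on the log2 scale, and the part of such cells in the values below was not tested. Measured were 1 of 12 Kupffer cell and leukocyte markers (Cd68, -0.06 on the log2 scale), 3 of 10 endothelial ones (Stab2 at -0.19, Lyve1 at 0.31 and Eng at 0.21), 2 of 10 stellate cell ones (Dcn at -0.17 and Acta2 at -0.19) and 2 of 6 bile duct ones. The values of Lyve1, Eng and Acta2 are bounds, with 1 array under the floor. Of the 38 markers 28 were under the floor in both arrays, with intensities up to 26.1 with DMSO and 29.9 with PCN (Pecam1). Among these 28, Adgre1, Ptprc, Cdh5, Des, Lrat and Epcam were at the low end, between 3.41 and 9.29 with DMSO. Bacterial and phage control probe sets above the floor, 40 in number, differed by a mean of -0.03 with an SD of 0.10 on the log2 scale and ranged from -0.33 to 0.16. This spread is technical and holds no difference between cultures. The ratio of the 3′ to the 5′ control probe set of beta-actin, a sign of RNA integrity, was 1.51 in both arrays.

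Promoter sequence is shown first for 6 members, because the E2F and mitotic branches of the cycle are distinguished by short elements near the start site. The 150 bases before the start site are given 5′ to 3′ on the gene's strand, from RefSeq with build GRCm38.p6. Capitals mark the motifs searched on both strands. These were an E2F site, spelled TTTCCCGC, TTTGGCGC, TTTCGCGC or TTTGCCGC, the cell cycle homology region TTTGAA, and the CCAAT box. Mcm6 stands for the helicase genes, E2f3 and Hmga2 for the largest differences upward, Rfc3 for the largest downward, and Cdk1 and Ccnb2 for the mitotic branch.
Mcm6, chr1:128359706-128359855, minus strand: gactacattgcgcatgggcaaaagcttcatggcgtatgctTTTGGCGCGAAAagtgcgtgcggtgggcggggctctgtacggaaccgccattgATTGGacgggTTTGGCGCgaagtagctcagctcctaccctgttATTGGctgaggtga
E2f3, chr13:29986064-29986213, minus strand: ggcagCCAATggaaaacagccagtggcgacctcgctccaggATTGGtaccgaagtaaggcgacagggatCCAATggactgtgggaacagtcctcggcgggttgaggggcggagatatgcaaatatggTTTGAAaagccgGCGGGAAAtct
Cdk1, chr10:69352913-69353062, minus strand: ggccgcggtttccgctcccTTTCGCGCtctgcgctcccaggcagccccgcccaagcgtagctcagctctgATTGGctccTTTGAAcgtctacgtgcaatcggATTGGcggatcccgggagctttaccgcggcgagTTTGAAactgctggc
Ccnb2, chr9:70421555-70421704, minus strand: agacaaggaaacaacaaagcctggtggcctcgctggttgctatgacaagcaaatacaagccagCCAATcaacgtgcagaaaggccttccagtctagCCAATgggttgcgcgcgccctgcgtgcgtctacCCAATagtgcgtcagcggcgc
Rfc3, chr5:151651209-151651358, minus strand: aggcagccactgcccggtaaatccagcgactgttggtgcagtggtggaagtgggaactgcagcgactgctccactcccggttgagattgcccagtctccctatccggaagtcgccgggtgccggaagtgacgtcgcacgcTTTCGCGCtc
Hmga2, chr10:120476470-120476619, minus strand: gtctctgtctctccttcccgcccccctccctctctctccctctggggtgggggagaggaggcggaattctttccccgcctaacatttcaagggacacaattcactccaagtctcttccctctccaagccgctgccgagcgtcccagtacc

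The Mcm6 window holds 3 matches to the E2F site, of which the first and the next overlap on opposite strands. Cdk1 has 1 E2F match and 2 cell cycle homology regions, Ccnb2 has 3 CCAAT boxes in the window, and Hmga2 has no match to any of the 3 motifs in it. Ccnb2 also has cell cycle homology regions outside the window, with first bases at -167 and 5 from the start site. E2f3 has 2 start sites in the table, and the one with more matches is shown.

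Of the 45 members, 37 had an entry in the promoter table, with 41 start sites in all. Over the full 300 bases from 250 before to 50 after the start, an E2F site stood in 12 of these 41 promoters (29.3%), against 2.26% of all 32851 promoters of the table. The CCAAT box stood in 26 of 41 (63.4%) against 37.4%, and the cell cycle homology region in 9 of 41 (22.0%) against 17.9%. Some spellings are short and occur often, and a match describes letters, not a bound factor.

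Across the 34 measured members, 26 were higher with PCN and 8 lower, a share of 76.5% higher beside 57.6% of all 6449 measured genes. For Gins1 and Bub1, which passed the floor with PCN alone, the direction was fixed by that rule. Of the 32 members measured in both arrays 24 were higher (75.0%), beside 58.0% of the 6229 genes so measured, a count added after seeing the data. The median log2 difference was 0.13 for the members and 0.03 for all measured genes. The control probe sets ranged from -0.33 to 0.16, and 20 of the 34 members lay within that technical range. Above it lay 13 members, beside 21.7% of all measured genes, and below it 1 member, beside 5.61%. Differences were small. A gap of 25% between the arrays, taken as the higher intensity over the lower, was reached upward by 3 members, which is 8.82% of them beside 5.27% of all measured genes, and downward by 1 member, beside 6.17%. Higher by 1.5-fold were 2 members, beside 0.636% of all measured genes, and none reached 2-fold, which 0.093% of all measured genes did. In bulk RNA such as this, more cycling cells and more RNA per cell cannot be told apart. When the arrays were quantile normalized, centred on the median difference or freed of an intensity trend, 23 of the 34 members were higher (67.6%), beside at most 53.5% of all genes.

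**Figure D1:**
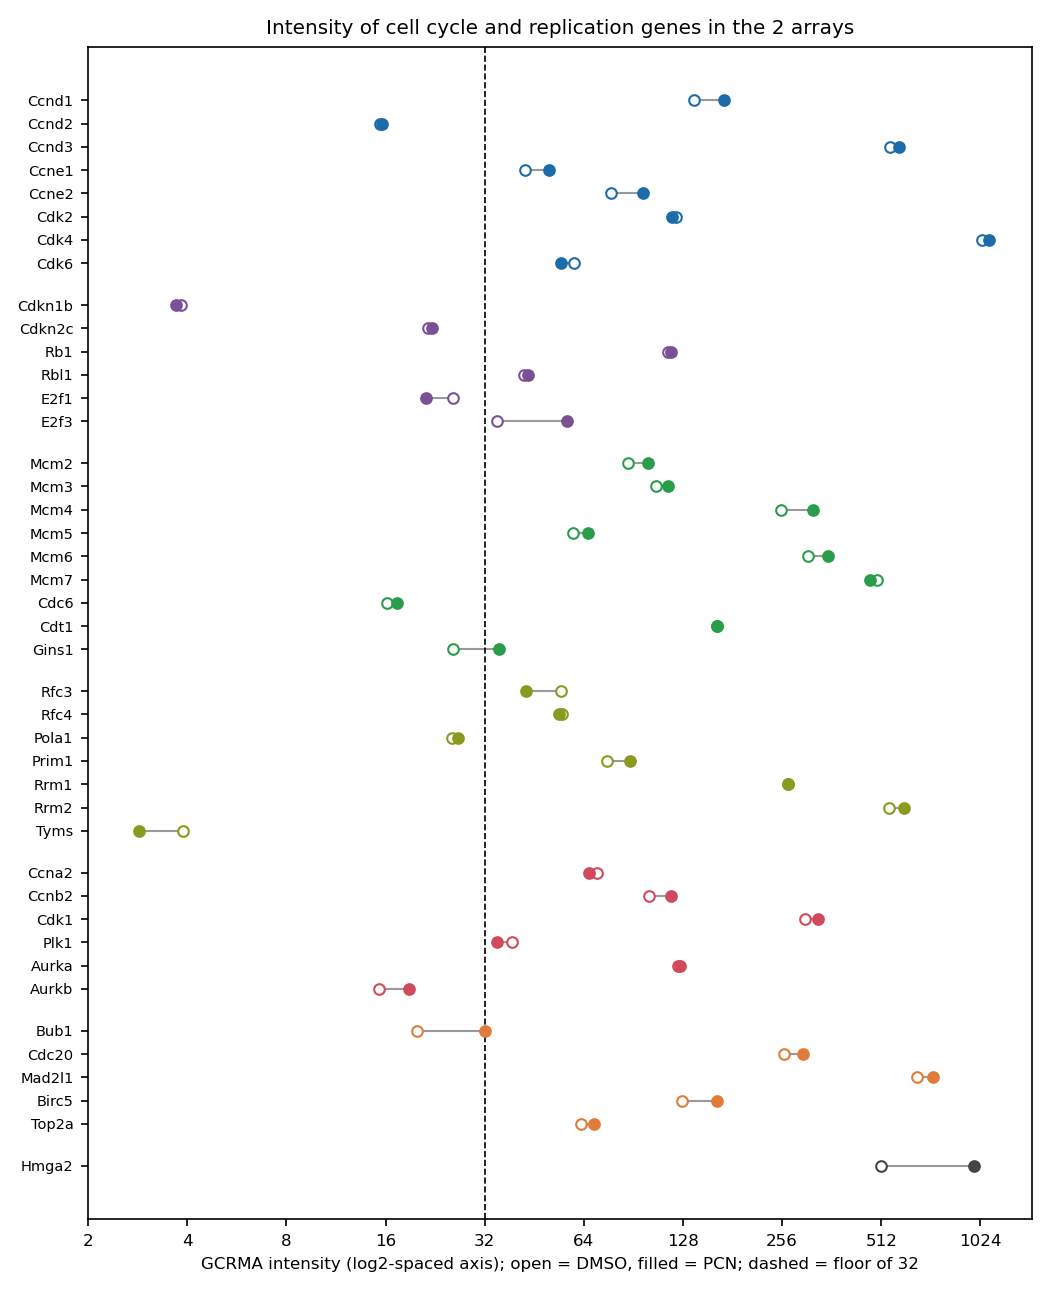
Intensity (log2-spaced horizontal axis) of the 42 members with a named probe set, grouped by role and coloured by group, with DMSO as open and PCN as filled circles and the floor of 32 as a dashed line. Hmga2 and E2f3 show the widest gaps above the floor, most pairs lie close together, and 8 members stay left of the line in both arrays.

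G1 cyclins and their kinases passed the floor in 7 of 8 members, and 5 of these were higher with PCN (71.4%, beside 57.6% of all measured genes). Ccnd1, the D cyclin that links growth signals to the cycle, had an intensity of 138 with DMSO and 170.3 with PCN, a difference of 0.30 on the log2 scale. Ccne2 and Ccne1, the E cyclins that activate CDK2 at the start of S phase, went from 77.5 to 96.8 and from 42.5 to 50.2. These differences were 0.32 and 0.24, and with Ccnd1 they were the largest of the group. Ccnd3, another D cyclin, stood at 543 and 579, and its relative Ccnd2 was under the floor at 15.4 and 15.6. The kinases were on both sides of 0. Cdk4, the partner of the D cyclins, had intensities of 1036 and 1091. Cdk2 had 121.7 and 118.7, and Cdk6 had 59.8 and 54.7, a difference of -0.13. The group median was 0.09, and none of its members reached a gap of 25% in either direction, although Ccne2 lay just under it at 1.249-fold.

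Among the brakes and switches of G1, E2f3 stood out from the rest. E2f3, an activating E2F factor, had an intensity of 34.9 with DMSO and 56.8 with PCN, a 1.63-fold difference (0.70 on the log2 scale) that ranked 24 of 6449 measured genes. The DMSO value lies close to the floor, and among measured genes with a mean intensity from 32 to 64 the log2 differences had an SD of 0.24. E2f1, the other activating factor listed, was under the floor at 25.6 and 21.2. The pocket proteins among the members, which hold E2F factors in check, barely differed, with Rb1 at 115.0 and 117.7 and Rbl1 (p107) at 42.2 and 43.2. Rbl2, a pocket protein outside the members, differed by -0.28 and is given with the further lists. The CDK inhibitors Cdkn1b (p27) and Cdkn2c (p18) did not reach the floor in either array, at 3.82 and 3.70 and at 21.5 and 22.2. Cdkn1a (p21), a CDK inhibitor outside the members and named after its value was seen, had 1524 and 1636. So 3 of the 6 members were measured, all 3 higher with PCN, beside 57.6% of all measured genes. However, Rb1 turned to -0.003 under quantile normalization and to -0.01 with the intensity trend removed.

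The 6 subunits of the MCM helicase, the ring that unwinds DNA at the fork, all passed the floor in both arrays. With PCN 5 of them were higher (83.3%), beside 58.0% of all genes measured in both arrays. Mcm4 differed most, from 254.8 to 317.4, a difference of 0.32 on the log2 scale. Mcm2 went from 86.9 to 99.9 and Mcm6 from 306.5 to 352.1, a difference of 0.20 for each. The other two higher subunits were Mcm5, at 59.4 and 65.7, and Mcm3, at 106.0 and 115.3. Mcm7 was the exception, at 495.6 with DMSO and 471.6 with PCN, a difference of -0.07. The median of the 6 subunits was 0.17, between 0.14 and 0.17 under all alternatives run, and no subunit reached a gap of 25%.

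Of the factors that load or activate the helicase, Cdt1 alone was measured in both arrays, so whether they moved together cannot be told. Cdt1, which brings the MCM ring to origins, had intensities of 162.8 and 162.0, and Cdc6, its partner in loading, was under the floor at 16.1 and 17.3. Gins1, a subunit of the GINS complex that joins MCM in the working helicase, was 25.7 with DMSO, under the floor, and 35.3 with PCN. It was thus at least 1.10-fold higher, and 1.37-fold higher with the DMSO value as deposited.

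The fork and nucleotide genes were mixed, with 3 of 5 measured members higher (60%, beside 57.6% of all measured genes). Their median was 0.003, which was negative under each of the 3 scalings tried. Rfc3, a subunit of the clamp loader that places PCNA on DNA, had the lowest difference of all 34 measured members, at 54.7 with DMSO and 42.7 with PCN, 1.28-fold lower. Its mean intensity lay between 32 and 64, where the log2 differences of measured genes had an SD of 0.24. Rfc4, another clamp loader subunit, had 54.8 and 53.6. Prim1, the catalytic subunit of primase, was higher, from 75.2 to 88.5, a difference of 0.24. Its partner in starting new strands, Pola1, was under the floor at 25.4 and 26.5.

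The subunits of ribonucleotide reductase, which makes deoxyribonucleotides, also differed little. Rrm2, the small subunit that is made in S phase, went from 539 to 602, a difference of 0.16, and Rrm1, the large subunit, stood at 266.1 and 266.6. The value of Rrm2 lies at the upper end of the range of the control probe sets. Tyms, the thymidylate synthase gene, was far under the floor, at 3.89 and 2.86, and gave no difference.

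Mitotic cyclins and kinases passed the floor in 5 of 7 members, with 3 higher (60%, beside 57.6% of all measured genes) and 2 lower. Their median was 0.02 and turned negative under each of the 3 scalings. Ccnb2, a B cyclin, went from 101 to 118, a difference of 0.23. Cdk1, the kinase that drives entry into mitosis, went from 301 to 329.8, a difference of 0.13. Ccna2, the cyclin of S and G2 phase, was on the other side, at 70.0 and 66.5. Plk1, a kinase of spindle assembly and mitotic exit, was lower too, at 38.6 and 34.8, a difference of -0.15. Aurka, a centrosome kinase, had 123.3 and 125.2, and Aurkb, the kinase of the chromosomal passenger complex, was under the floor at 15.3 and 18.9.

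The spindle checkpoint and the remaining mitotic genes had 4 members measured in both arrays, all 4 of them higher, with a median of 0.18. Of all genes measured in both arrays 58.0% were higher. With Bub1, measured with PCN alone, the median was 0.16. Birc5 (survivin), a chromosomal passenger protein and inhibitor of apoptosis, had an intensity of 127.1 with DMSO and 162.3 with PCN, 1.28-fold higher, but under a gap of 25% with each of the 3 scalings. Cdc20, the activator of the ligase that ends metaphase, went from 259.9 to 296.6, a difference of 0.19. Mad2l1, a checkpoint protein that holds CDC20 back, went from 656 to 735, a difference of 0.16. Top2a, the topoisomerase that untangles replicated chromosomes, went from 62.8 to 69.0. Bub1, a checkpoint kinase, was 19.95 with DMSO and 32.1 with PCN, just above the floor, so its bound lay at 0.006 on the log2 scale (-0.03 with median centring) while the deposited values differed by 0.69.

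Hmga2, which bends AT-rich DNA and is abundant in embryonic tissues, had the largest difference of the members. Its intensity was 509.8 with DMSO and 977 with PCN, a 1.92-fold difference that ranked 7 of 6449. It is an architectural chromatin protein, not a part of the cycle engine. Without it, 25 of 33 measured members were higher, and the median stayed at 0.13.

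**Figure D2:**
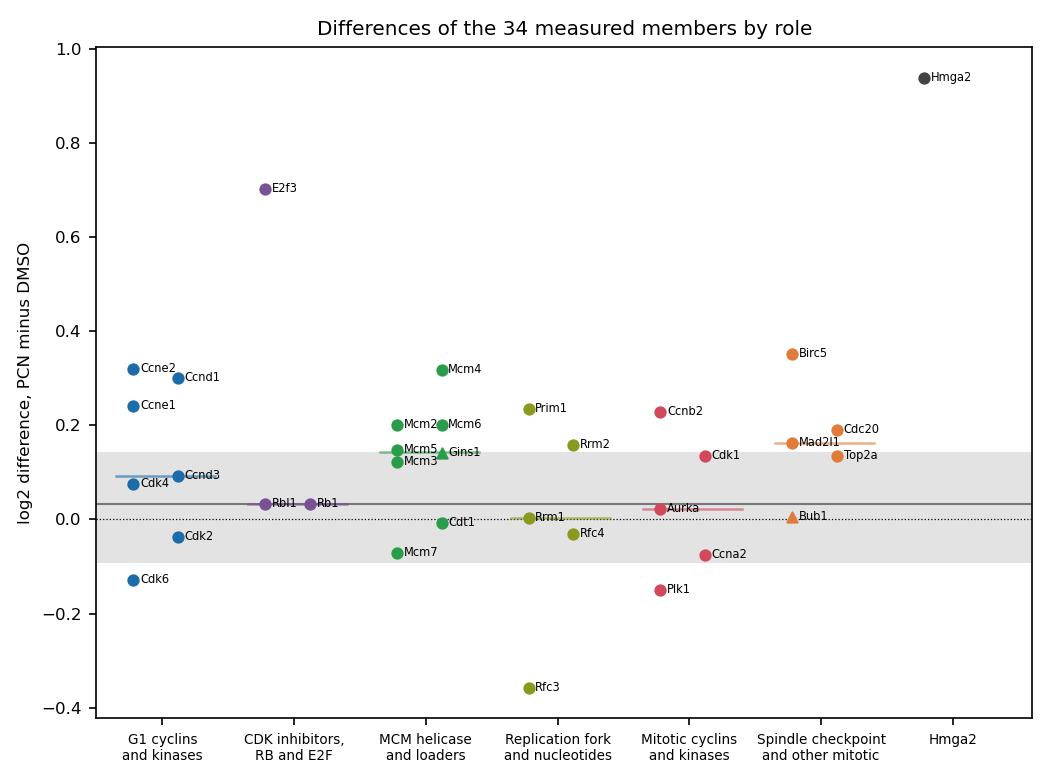
Log2 difference, PCN minus DMSO, of each of the 34 measured members by role group, with a coloured line at each group's median. Triangles are lower bounds (DMSO value under the floor), the grey band runs from the 25th to the 75th percentile of all 6449 measured genes (-0.09 to 0.14) and the grey line is their median of 0.03; Hmga2, E2f3 and Rfc3 lie farthest from the band.

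Set side by side, the role groups overlapped. Median differences were 0.09 for G1 cyclins and kinases, 0.14 for the MCM helicase with its loaders, 0.02 for mitotic cyclins and kinases and 0.16 for the spindle checkpoint group. With single arrays no test of these differences between groups was possible. Within each of these groups except the spindle checkpoint group the members spanned both directions. Of the 34 members, 12 differed by less than 0.1 on the log2 scale either way.

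The members lay mostly at low intensity. Of the 34, 10 had a mean intensity from 32 to 64 (5 to 6 on the log2 scale) and 10 lay in the next log2 unit, where 1245 and 1167 of all measured genes lay. In the lower band 6 of the 10 members were higher, beside 49.2% of all genes there, and in the next 8 of 10, beside 56.8%. Those 6 include Gins1 and Bub1, whose direction was fixed by the floor. Above 9 on the log2 scale all 5 members (Cdk4, Ccnd3, Rrm2, Mad2l1 and Hmga2) were higher, beside 59.5% of genes at that level, whose log2 differences had an SD of 0.17.

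**Figure D3:**
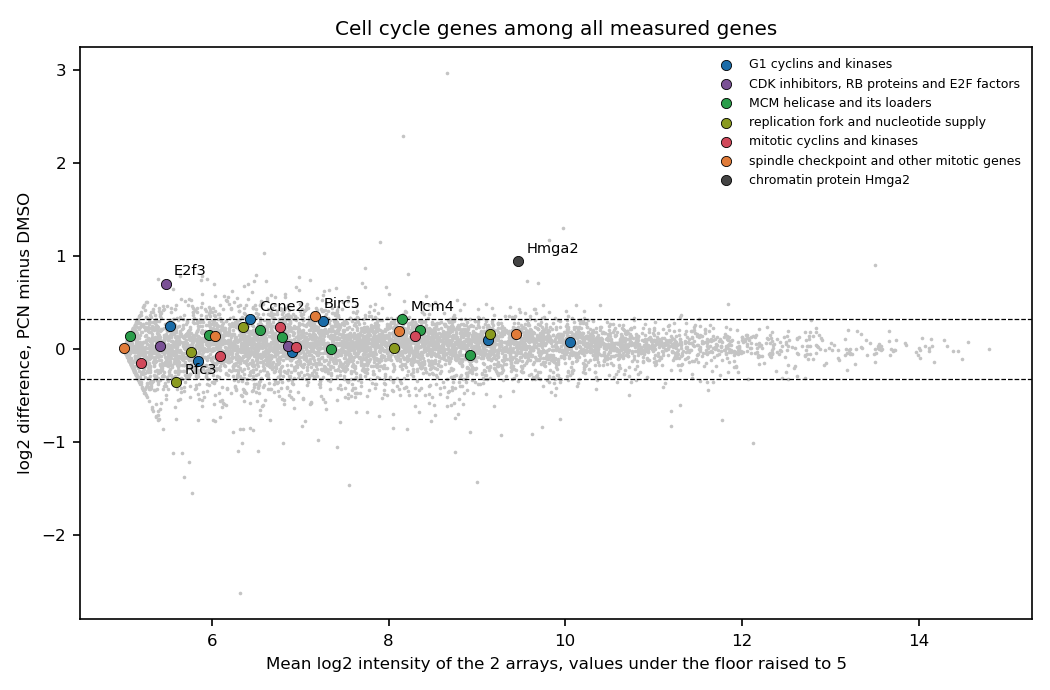
Log2 difference, PCN minus DMSO, against the mean log2 intensity of the 2 arrays for all 6449 measured genes (grey) and the 34 measured members (coloured by role), with dashed lines at a gap of 25% either way. Most members lie inside the dashed lines and to the left of the plot, with Hmga2 and E2f3 above and Rfc3 below.

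Members with an E2F site in the promoter were not alike in direction. Of the 12 genes 10 were measured, with 6 higher and 4 lower, from -0.36 for Rfc3 to 0.70 for E2f3 and a median of 0.08. The 18 measured members with a promoter entry and no E2F site had 15 higher and 3 lower, with a median of 0.15. With a cell cycle homology region, 7 of 8 measured members were higher, with a median of 0.16, and the lower one was Plk1; without it, 14 of 20 were higher, with a median of 0.08. With a CCAAT box 15 of 19 were higher, and without it 6 of 9. Of all measured genes 57.6% were higher. The direction of Bub1 was fixed by the floor. It is counted as higher without an E2F site, without a homology region and with a CCAAT box.

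Other genes of the same pathways, 115 in 3 lists, gave values nearer to those of all genes. Of these, 55 were measured, 34 of them higher with PCN (61.8%, beside 57.6% of all measured genes), with a median of 0.05 beside 0.03. For 2 of the higher ones, Chaf1b and the mitotic gene Ccnf, only the PCN array passed the floor, which fixed their direction. A gap of 25% was reached upward by 2 of them (3.64%, beside 5.27% of all measured genes) and downward by 2, beside 6.17%.

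Other regulators of G1 and S phase were higher in 8 of 12 measured genes (66.7%, beside 57.6% of all) and had a median of 0.07. The largest difference was that of Tfdp1, the DP1 partner with which E2F factors bind DNA, at 273.6 with DMSO and 170.2 with PCN, 1.61-fold lower. Lower by 1.5-fold or more were 1.3% of all measured genes. Rbl2 (p130), the pocket protein of resting cells, had 44.6 and 36.8, a difference of -0.28. Mnat1, a subunit of the kinase that activates CDKs, differed by -0.23, and E2f5, an E2F of the repressive class, by 0.21.

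Other replication genes were higher in 17 of 27 measured (63%, beside 57.6% of all measured genes), with a median of 0.04. Rfc5, a clamp loader subunit like Rfc3, differed most, from 60.1 to 92.7, 1.54-fold higher. Lig1, the ligase that joins Okazaki fragments, had 47.3 and 37.0, 1.28-fold lower. Chaf1b, a subunit of a histone chaperone of the fork, was 31.0 and 39.3, at least 1.23-fold higher, and Orc6, a subunit of the origin recognition complex, had 129.2 and 105.7, a difference of -0.29.

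Other mitotic genes passed the floor in 16 of 45, with 9 higher (56.2%, beside 57.6% of all measured genes) and 7 lower. Their median was 0.04, which was -0.04 with a floor of 4 and -0.03 with none. Nusap1, a protein that binds spindle microtubules, had 45.3 and 58.1, 1.28-fold higher. Nek2, a centrosome kinase, had 97.8 and 79.8, a difference of -0.29. Anln, an actin-binding protein of cytokinesis, differed by 0.23, and Cdca8 (borealin), a chromosomal passenger protein like survivin, by 0.17. Neither array reached the floor for 26 of the 45.

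**Figure D4:**
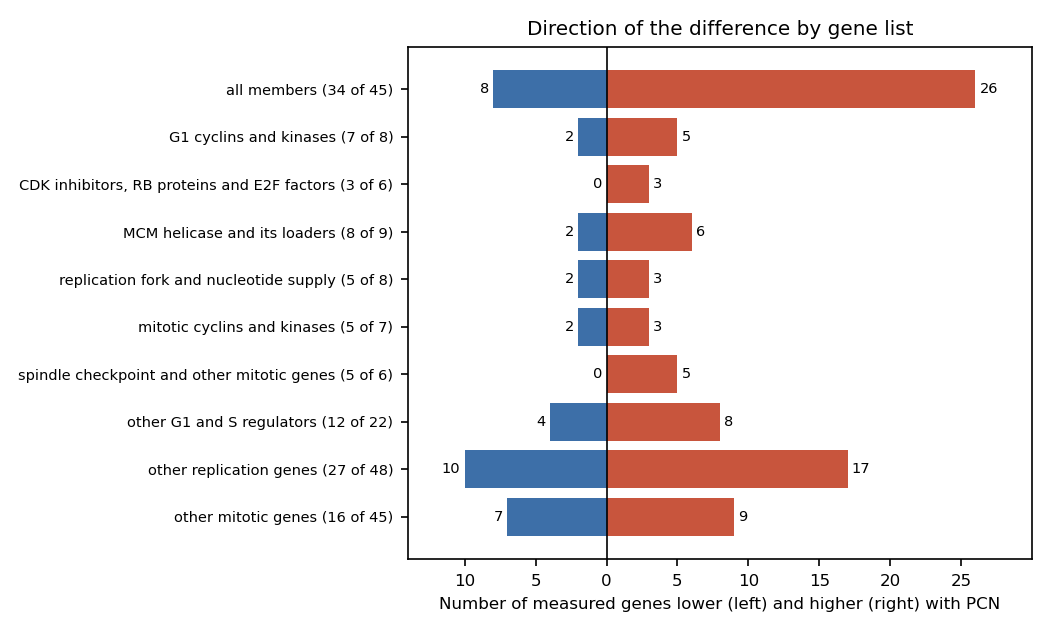
Number of measured genes lower (left, blue) and higher (right, red) with PCN among all members, their role groups and the 3 further pathway lists, with the number measured of the number listed in brackets (Hmga2 is counted among all members only, and Gins1, Bub1, Chaf1b and Ccnf are bounds). Over all 6449 measured genes 57.6% were higher, the split against which the bars are to be read.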

How the data were processed

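The deposited table holds 1 intensity per probe set and array, on a linear scale, made by the authors with GCRMA 2.2.0, per the submitters' processing notes. Per the labels' protocols, biotinylated cRNA was made from 5 µg of pooled RNA. For the probe set definition and genome build, the sources used here give nothing. Symbols came from the platform annotation, with at most 1 probe set per gene. From the deposited intensities, log2 values and their difference, PCN minus DMSO, were taken in Python 3.11.15 (pandas 2.3.3, numpy 2.4.6). Values under the floor of 5 (log2) were raised to it where the other array passed it, so that such folds are bounds. No detection calls were used, and the floor was set by choice. With 1 array per group there was no test, and batch and treatment cannot be told apart. Precision is limited by the number of arrays. The members, role groups, further lists and thresholds of 25%, 1.5-fold and 2-fold were chosen with earlier results of these data known. Named from the further lists are the 4 measured genes of each with the largest difference, and genes marked as named after their values were seen. Ccnf was named besides as a bound, and E2f2, E2f7, E2f8 and Tfdp2 as under the floor. Simulated arrays were also put through the same steps, but the outcome is not given here. That run therefore says nothing about the precision of the differences above. Alternatives were other floors, low values as deposited, quantile normalization, median centring, a loess trend (statsmodels 0.14.6, fraction 0.3), other thresholds, genes measured in both arrays and the list without Hmga2. Promoters were matched to members by symbol.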

Additional observations from a re-analysis of the deposited data

How the results depend on the processing

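No member difference or list median larger than the control SD of 0.10 changed sign under any alternative run. Of 261 values of single members under these settings, 254 stayed within that SD of the reported value. Of 97 medians, 96 did. Signs changed for 4 members (Rb1, Rrm1, Aurka and Bub1) and for 3 medians, all within 0.04 of 0. The number of members higher by at least 25% was 5 in each of 3 settings (low values as deposited, a floor of 4, no floor), since Bub1 and Gins1 then enter at 0.69 and 0.46, and 0 at a threshold of 2-fold. It was 2 under each of the 3 scalings, where Birc5 stood between 0.30 and 0.32, just under the threshold, and 2 with a floor of 6, where E2f3 was not measured. With a floor of 6, which leaves 3 genes, the fork and nucleotide median was 0.16, and Rfc3 was not measured. The count over genes measured in both arrays was added after seeing the data. Leaving out a replicate was impossible. No paired analysis was possible because there was only 1 array for each treatment. Signal close to the floor limits E2f3, Rfc3, Ccne1, Rbl1, Bub1, Gins1, Plk1 and the 8 members under it.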

Other observations

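The clamp loader, a complex of 5 subunits that opens the PCNA ring, showed members on both sides. Rfc5 differed by 0.62 on the log2 scale and Rfc3 by -0.36. The others, Rfc1 at 0.05, Rfc2 at -0.09 and Rfc4 at -0.03, lay near 0, and Rfc1 and Rfc2 were named after their values were seen. The intensities of Rfc3 and Rfc5 were between 42.7 and 92.7, and whether their opposite signs would recur in other cultures was not tested.

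E2F factors and their DNA-binding partners also differed in sign. E2f3 was higher at 0.70 and Tfdp1 lower at -0.68. E2f5 stood at 0.21. E2f4 at -0.13 and E2f6 at 0.10 were named after their values were seen, and E2f2, E2f7, E2f8 and Tfdp2 were under the floor in both arrays.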
